A study of Mus musculus with 28 samples.

Results

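Mouse embryonic fibroblasts (MEFs) that had been cultured with the p38 inhibitor SB203580 before induction were compared, on day 5 of reprogramming (pre-p38i day 5), with control MEFs of the vehicle arm on day 7 (DMSO day 7). The comparison covers 4 of the 28 RNA-seq libraries, 2 in each group. The pair was selected on the expression values themselves: across all genes tested, DMSO day 7 was the control group nearest to the pre-p38i day 5 libraries. Its purpose is to set the pretreated cells beside control cells at a like stage instead of on a like day.

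All libraries came from primary fibroblasts labelled wild type. By the study's methods these were Oct4-GFP (OG2) MEFs, from OG2 males crossed with 129 females, taken from embryos of both sexes. Both groups received Sox2, Klf4 and Oct4 (SKO, or OKS in the labels) by retrovirus and were then kept in the serum-free medium iCD1. The pre-p38i cells met the inhibitor only before induction in iCD1. The control columns are labelled only as controls, and the study names that arm DMSO. The comparisons that share no library with the pair use 6 further groups, which are MEFs with and without p38 inhibitor (p38i MEFs and MEFs), pre-p38i day 3 against DMSO day 5, and day 1 of both arms. The 4 libraries of the pair were alike in the number of genes with a value of at least 1 (14033 to 14101) and in the percent of the total from mitochondrial genes (3.623 to 4.022). Nothing in the labels says that replicate libraries came from separate cultures, so the spread between them may be technical.

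During reprogramming, fibroblasts lose their matrix and contractile genes, gain an epithelial phase and finally turn on the endogenous pluripotency network. Interferons act through STAT and IRF factors to induce GTPases that attack intracellular pathogens, antiviral proteins and the machinery that loads peptides on MHC class I. p38 is a stress-activated MAP kinase that restrains the cell cycle and stabilises messages of inflammatory genes. Values below are taken, from their totals, to be in TPM, a measure of transcript abundance scaled to the same total in every library, here rounded down to whole numbers, and a log2 difference is on the scale log2(value + 1), which understates the change of low genes. Each is given with its standard error from limma, a linear model fitted to all 28 libraries, and a gene is "called" at a Benjamini-Hochberg adjusted p under 0.05. The pair was chosen by these same values, so a call in the pair is no independent test: it marks only a difference that is large for the spread between libraries, and the counts of such calls are a description.

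The choice of day 7 rested on a small margin. The root mean square log2 difference over 13230 genes was 0.44 from the first pre-p38i day 5 library to the mean of DMSO day 7 and 0.436 from the second. To DMSO day 5, the next nearest control group, it was 0.482 and 0.483. The groups further off were DMSO day 3 at 0.714 and 0.71, DMSO day 1 at 1.11 for both libraries and MEFs at 1.6 for both. Over the 500 most variable genes the order of the nearest control groups was reversed. There the distance was 0.926 and 0.843 to DMSO day 5 and 1.07 and 0.991 to DMSO day 7. Of the 62 members tested of 3 interferon-related lists, 44 are among those 500 of 13230 genes. So are 11 of 24 epithelial, 7 of 13 contractile, 6 of 20 pluripotency, 7 of 29 matrix and 7 of 21 senescence-type genes. None is from the mitotic, DNA replication or macrophage lists. Which genes reverse the order was not tested.

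**Figure D1:**
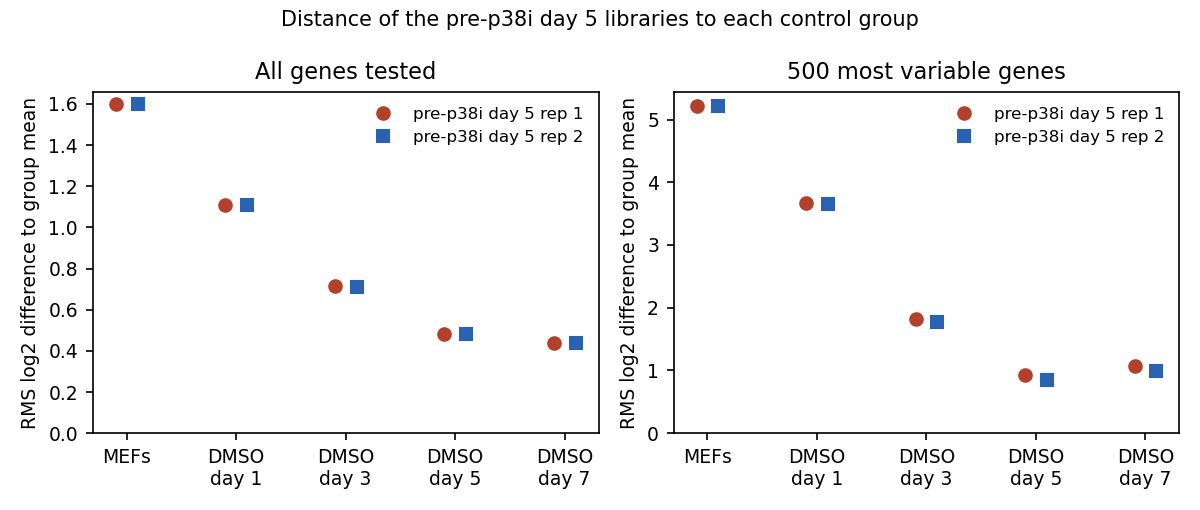
Root mean square (RMS) log2 difference, on the vertical axis, of each pre-p38i day 5 library to the mean of MEFs and of each DMSO day. Over all genes tested (left) DMSO day 7 is nearest at 0.44 and 0.436, and over the 500 most variable genes (right) DMSO day 5 is nearest at 0.926 and 0.843.

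At this stage the pretreated cells differed from control cells in several groups of genes. Interferon-inducible and MHC class I genes were higher in pre-p38i day 5, by up to 2.52 among the named genes on the log2 scale. Mitotic and DNA replication genes were moderately higher. Late pluripotency and epithelial genes, such as Dppa5a and Cldn4, were lower, and so were macrophage markers and part of the fibroblast matrix genes. In all, 1318 genes were called higher, 9.96% of those tested, and 577 lower, 4.36%. With a log2 difference of at least 1 in size, 135 genes (1.02%) were higher and 139 (1.05%) lower, of which 57 and 86 had a mean under 5 over the 28 libraries. The split depended on scaling: 69.6% of the calls were higher as deposited and 51.5% after quantile normalization. The median difference of all genes was 0.07 as deposited and 0.01 after quantile normalization.

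**Figure D2:**
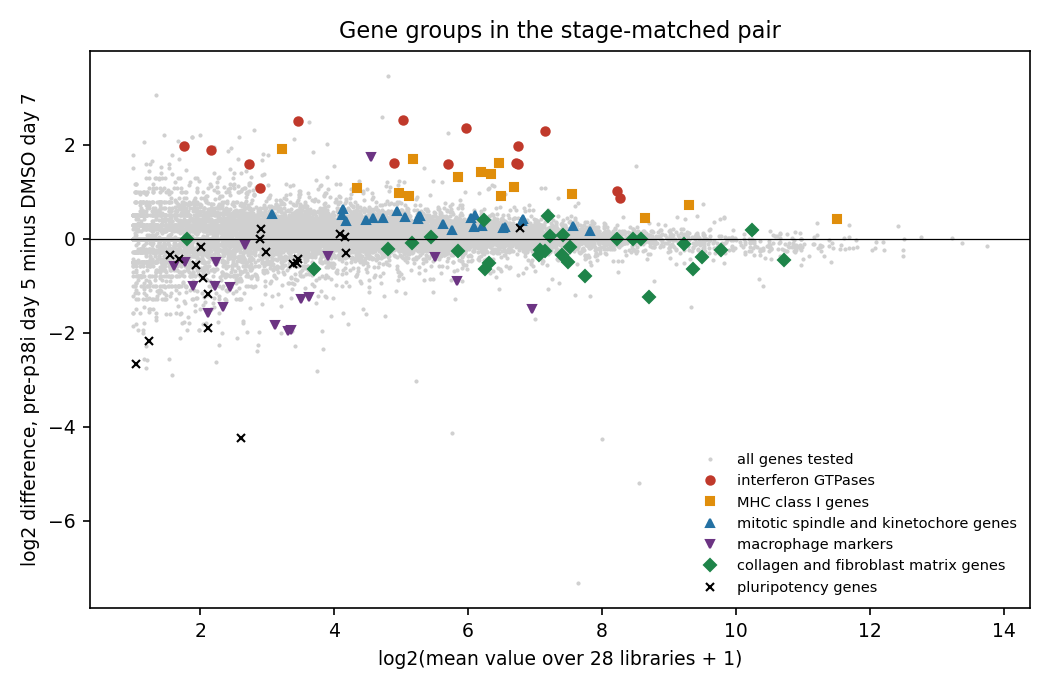
Log2 difference between pre-p38i day 5 and DMSO day 7 (vertical) against the log2 of the mean value over 28 libraries plus 1 (horizontal), 1 point per gene, with 6 gene lists in colour. All 15 interferon GTPases and all 15 MHC class I genes lie above 0, most macrophage markers and pluripotency genes lie below it, and the mitotic genes form a band with a median of 0.43.

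The interferon-inducible GTPases showed the largest median difference among the 28 gene lists. They comprise the immunity-related GTPases (IRGs) and guanylate-binding proteins (GBPs), which disrupt vacuoles that hold intracellular pathogens. All 15 members tested were called higher, 14 of them with a log2 difference of at least 1, and the list median was 1.62. For 10 of the 15, both pre-p38i day 5 libraries exceeded all 10 MEF and DMSO libraries, which held for 10.2% of all genes. Summed over the list, the level was 3472 and 3727 in pre-p38i day 5 and 1372 and 1261 in DMSO day 7. It was 3139 and 3044 in DMSO day 5, so in the control arm the list stood higher on day 5 than on day 7. In MEFs the sum was 29 and 35.

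Promoter sequence is shown for 4 of these GTPases because they hold letters of the interferon-response type close to the start of transcription. Promoters are RefSeq windows of GRCm38.p6, from 250 bases before the start to 50 after it, written 5′ to 3′ on the gene's strand. Gbp2 lies on the plus strand at chr3:142620413-142620712, Igtp on the plus strand at chr11:58199306-58199605, Irgm2 on the plus strand at chr11:58214727-58215026 and Tgtp2 on the minus strand at chr11:49064163-49064462. Capitals mark GAAANNGAAA on either strand, the core of the interferon-stimulated response element (ISRE), and TTCNNNGAA, the gamma-activated site (GAS).
Gbp2: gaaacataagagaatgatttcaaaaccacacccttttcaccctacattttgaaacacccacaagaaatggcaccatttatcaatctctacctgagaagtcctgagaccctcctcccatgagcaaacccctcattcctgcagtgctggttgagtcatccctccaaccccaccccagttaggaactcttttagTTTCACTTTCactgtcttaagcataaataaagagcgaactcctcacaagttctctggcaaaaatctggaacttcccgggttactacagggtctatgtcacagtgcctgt
Igtp: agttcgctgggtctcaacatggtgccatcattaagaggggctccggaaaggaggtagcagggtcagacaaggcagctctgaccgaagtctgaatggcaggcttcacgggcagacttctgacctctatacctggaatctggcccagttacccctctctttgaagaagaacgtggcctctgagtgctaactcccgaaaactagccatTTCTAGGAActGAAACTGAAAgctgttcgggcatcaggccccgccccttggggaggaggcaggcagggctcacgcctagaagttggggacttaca
Irgm2: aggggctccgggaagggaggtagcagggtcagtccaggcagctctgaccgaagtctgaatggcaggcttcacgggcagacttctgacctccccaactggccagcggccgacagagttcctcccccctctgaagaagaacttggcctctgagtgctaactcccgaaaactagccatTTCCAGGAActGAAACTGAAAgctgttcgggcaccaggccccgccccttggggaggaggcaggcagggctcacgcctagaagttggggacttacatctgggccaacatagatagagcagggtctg
Tgtp2: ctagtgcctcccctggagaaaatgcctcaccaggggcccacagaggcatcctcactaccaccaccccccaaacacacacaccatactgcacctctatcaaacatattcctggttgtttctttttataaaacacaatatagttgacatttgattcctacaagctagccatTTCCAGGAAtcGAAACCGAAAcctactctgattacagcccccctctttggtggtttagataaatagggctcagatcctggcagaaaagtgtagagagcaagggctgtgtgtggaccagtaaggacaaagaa

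In Igtp, Irgm2 and Tgtp2 the GAS letters stand just before the ISRE letters, which begin 34, 64 and 70 bases before the start. In Gbp2 the ISRE letters lie on the opposite strand, and the capitals begin 59 bases before it. Of the 10 interferon GTPases with a promoter in the table, 9 (90%) hold the ISRE letters and 6 (60%) the GAS letters. Over all 32851 promoters the shares are 3.44% and 8.3%. Counted by gene, as for the list, they are 3.74% and 8.05% of the genes tested that have a promoter there. Among antiviral genes 11 of 23 (47.8%) hold the ISRE letters, and among MHC class I genes 3 of 13 (23.1%). These matches describe letters in the windows and say nothing about binding, and the 4 genes shown were chosen after their values were seen.

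Iigp1, an IRG, had the largest positive difference among the named genes. Its value was 115 and 123 in pre-p38i day 5 and 21 and 19 in DMSO day 7, a log2 difference of 2.52 ± 0.21. The groups did not overlap, yet DMSO day 5 stood at 115 and 111, level with the pretreated cells of the same day. Tgtp2 was 260 and 303 against 58 and 51 (2.35 ± 0.30), with 180 and 128 in DMSO day 5. Gbp2 was 400 and 429 against 87 and 80 (2.30 ± 0.20), with 299 and 285 in DMSO day 5. Gbp4 was 37 and 46 against 7 and 6 (2.50 ± 0.29). For Tgtp2, Gbp2 and Gbp4 both pretreated libraries lay above every MEF and DMSO library. Igtp followed with 345 and 368 against 96 and 84 (1.98 ± 0.23), and Gbp2b, a GBP outside the list, with 129 and 143 against 30 and 26 (2.24 ± 0.14). Tgtp2 shares near-identical transcript sequence with Tgtp1, and Gbp4 with Gbp8 and Gbp10, so their separate values are uncertain. Igtp overlaps an exon of Irgm2.

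On day 7 of the pretreated arm these genes were lower again. Iigp1 read 32 and 32 in pre-p38i day 7, Gbp2 121 and 125, Gbp4 16 and 14, and Igtp 187 and 217. All these values lay above DMSO day 7 and below pre-p38i day 5. The interferon GTPases were thus lower on day 7 than on day 5 in both arms.

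**Figure D3:**
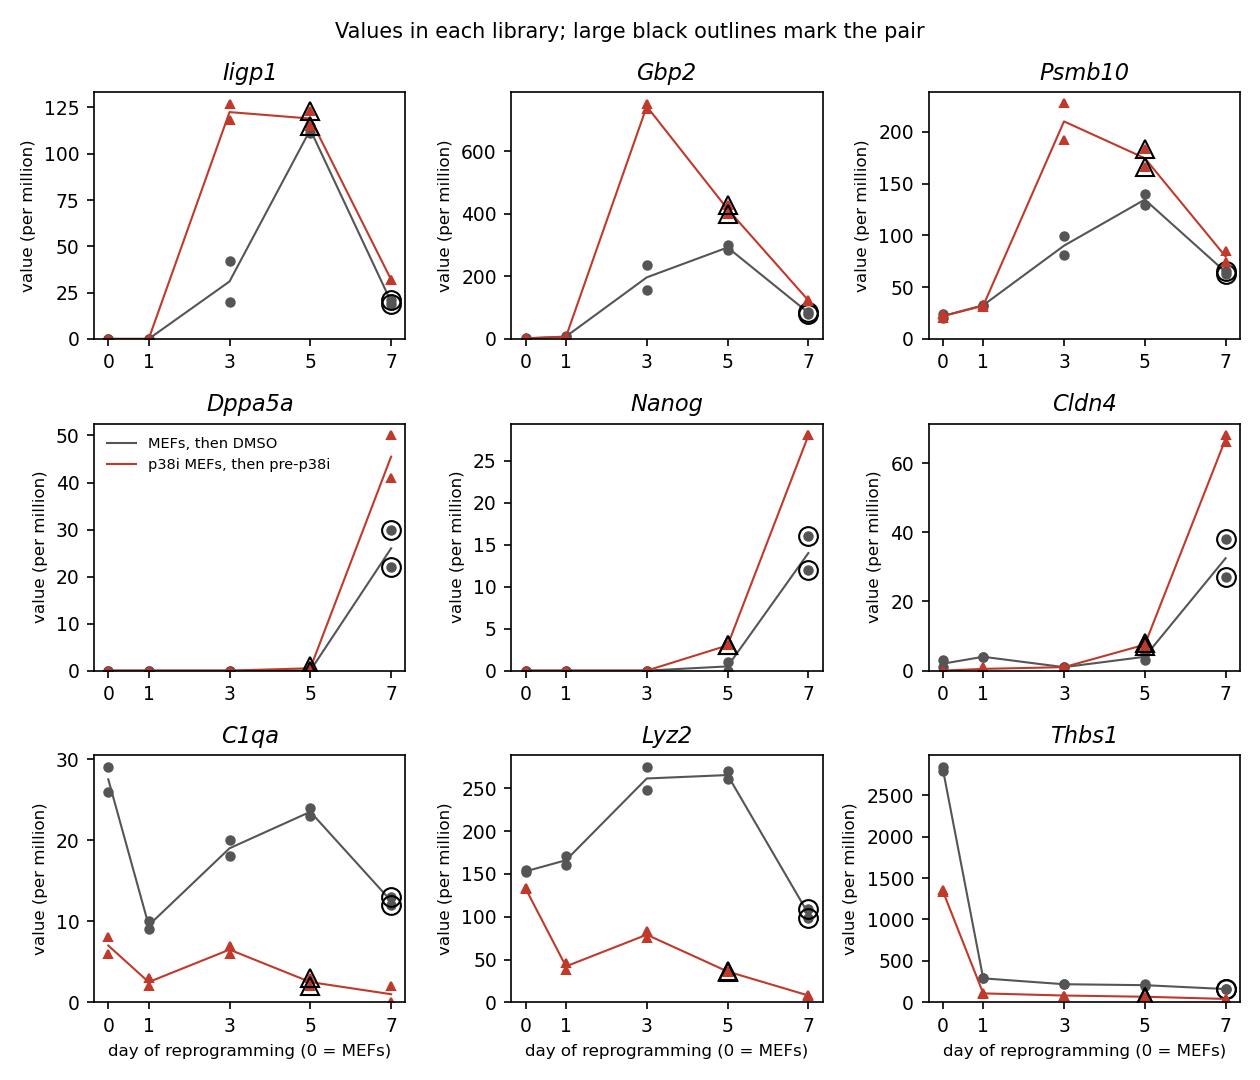
Values (TPM rounded down) of 9 genes in each library (points) and group means (lines) over MEFs (day 0) and days 1, 3, 5 and 7, for the DMSO arm in grey and the pre-p38i arm in red, with the pair outlined in black. Iigp1 and Gbp2 are higher on day 5 than on day 7 in both arms, and Dppa5a, Nanog and Cldn4 stay at 8 or less before day 7. C1qa, Lyz2 and Thbs1 lie lower in the pre-p38i arm from MEFs on, although Lyz2 was not called in p38i MEFs. Day 0 shows MEFs and p38i MEFs.

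The comparison of pre-p38i day 3 with DMSO day 5, which uses other libraries at the same offset of days, gave a weaker picture for this list. Of all genes tested there, 5.82% were called higher and 7.54% lower by limma. Of the 15 GTPases, 4 rose and 0 fell, with a median of 0.29. Gbp2 rose by 1.34 (adjusted p = 0.000131), from 299 and 285 to 734 and 751, and Igtp by 0.81 (adjusted p = 0.0208), whereas Iigp1 differed by 0.11 (adjusted p = 0.782) and Tgtp2 by 0.19 (adjusted p = 0.749). Gbp2b rose by 1.34 (adjusted p = 2.86e-06). In p38i MEFs against MEFs 0 of the 15 were called in either direction by limma. Apart from Irgm1, at 24 to 32, no member exceeded 2 in those 4 libraries.

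MHC class I genes were higher throughout the list. It holds the class I heavy chains and beta-2-microglobulin, the TAP peptide transporter, the immunoproteasome subunits and Nlrc5, the transactivator of the pathway. All 15 were called higher, with a median of 1.08, and for all 15 both pretreated libraries lay above the 10 MEF and DMSO libraries. Psmb8, an immunoproteasome subunit, was 355 and 381 against 134 and 106 in DMSO day 7 (1.62 ± 0.42), a call lost in 5 alternative settings. Psmb9, another, was 131 and 159 against 50 and 38 (1.70 ± 0.22), and Psmb10 was 166 and 183 against 66 and 63 (1.42 ± 0.11). Nlrc5 was 26 and 27 against 8 and 5 (1.90 ± 0.39). The heavy chain H2-K1 was 2250 and 2356 against 1476 and 1338, and B2m 6312 and 6781 against 4911 and 4933. The immunoproteasome subunits were thus further apart on the log2 scale than the abundant surface components. Psmb9 overlaps Tap1, so that reads could be shared.

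Within this list the earlier comparison ran in both directions. In pre-p38i day 3 against DMSO day 5, 2 of the 15 rose and 6 fell, and the median was -0.12. H2-K1 fell (-1.55, adjusted p = 1.12e-10), as did H2-Q7 (-1.91, adjusted p = 1.2e-06) and B2m (-0.70, adjusted p = 2.17e-09). Psmb10 rose by 0.63 (adjusted p = 0.000677). H2-K1 and H2-Q7 were therefore higher in the pretreated cells of the pair and lower in those of the earlier comparison. The control arm itself changed steeply. Summed over the list, DMSO day 3 stood at 3309 and 3631. DMSO day 5 reached 10248 and 9524, above the 8396 and 8165 of DMSO day 7. The pretreated sums exceeded controls of a like day, with 6199 and 6052 in pre-p38i day 3. In pre-p38i day 5 they were 12198 and 12943. Whether the change of direction follows the control course was not tested. In p38i MEFs 1 of the 15 rose and 4 fell.

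Antiviral interferon-stimulated genes were higher in part. Of the 32 tested, 24 were called higher and 0 lower, with a median of 0.70. Summed over the list, the level was 4914 and 5248 in pre-p38i day 5 and 3203 and 3330 in DMSO day 7. In DMSO day 5 it was 4831 and 4808, close to the pretreated cells of the same day. For 13 of the 32, both pretreated libraries exceeded all 10 MEF and DMSO libraries, against 10.2% of all genes. Ifit3, which binds viral RNA with its partners, was 111 and 127 against 40 and 42 (1.51 ± 0.28), and its near-identical copy Ifit3b 41 and 44 against 15 and 13 (1.54 ± 0.22). In DMSO day 5 Ifit3 was 99 and 101 and Ifit3b 38 and 42. Parp14 was 41 and 44 against 16 and 17 (1.31 ± 0.21). Transcription factor genes of the pathway were among them. Stat2 was 190 and 184 against 79 and 93 (1.12), and Irf1 104 and 108 against 43 and 47 (1.22). Usp18, a negative regulator of interferon receptor signalling, was 94 and 106 against 86 and 92 and was not called. In pre-p38i day 3 against DMSO day 5, 1 gene of this list rose, Irf1 (0.80, adjusted p = 0.00852), and 2 fell.

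Other genes of interferon responses stood beside these lists. Il18bp, a secreted decoy for interleukin-18, was 57 and 47 against 7 and 10 (2.49 ± 0.39), and Epsti1 was 24 and 30 against 6 and 8 (1.81 ± 0.26). Samhd1, which degrades nucleotides and limits retroviruses, was 141 and 150 against 64 and 72 (1.09 ± 0.11). Samhd1 rose also in pre-p38i day 3 (0.91, adjusted p = 1.32e-05) and in p38i MEFs (0.34, adjusted p = 0.0355). The proteasome activator genes Psme1 and Psme2 were higher by 0.86 ± 0.09 and 0.77 ± 0.08, and both rose in p38i MEFs, by 0.42 (adjusted p = 0.00219) and 0.32 (adjusted p = 0.00987). Of the 135 genes higher by at least 1, 33 belong to the 3 interferon-related lists.

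**Figure D4:**
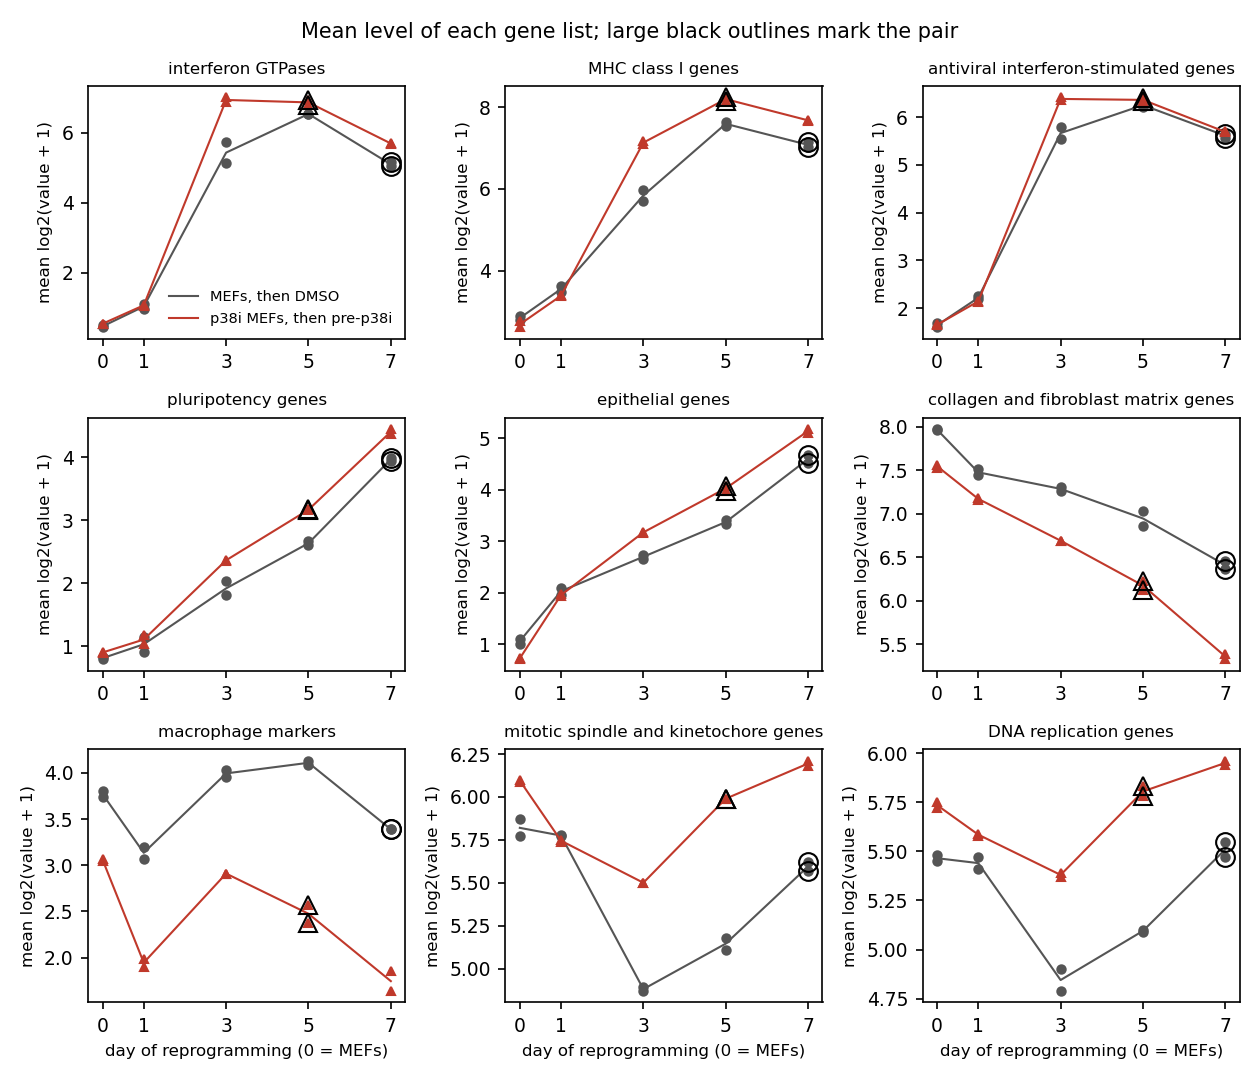
Mean log2(value + 1) over the tested members of 9 gene lists in each library (points), with group means as lines, for the DMSO arm (grey) and the pre-p38i arm (red), the pair outlined in black. The interferon and MHC lists stand higher in the outlined pre-p38i day 5 libraries, pluripotency and epithelial genes stand between DMSO day 5 and day 7, and macrophage and matrix lists stand below DMSO day 7.

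Pluripotency genes had not reached the level of DMSO day 7. Of 20 tested, 0 were called higher and 6 lower, with a median of -0.42. The mean log2 level of the list was 3.16 and 3.17 in pre-p38i day 5, between 2.60 and 2.67 in DMSO day 5 and 3.94 and 3.99 in DMSO day 7. Dppa5a, an RNA-binding protein gene of naive pluripotent cells, was 0 and 1 against 22 and 30 (-4.24 ± 0.28). DMSO day 5 was listed at 0 in both libraries, and pre-p38i day 7 at 50 and 41. Dppa5a shares near-identical sequence with a transcript of Pigp. Nanog, a core pluripotency factor, was 3 and 3 against 12 and 16 (-1.89 ± 0.27), and 0 and 1 in DMSO day 5. Esrrb was listed at 0 in both pretreated libraries and at 7 and 4 in DMSO day 7. Zfp42 (Rex1) was 22 and 22 against 31 and 29 (-0.43 ± 0.29) and was not called. In pre-p38i day 7 Nanog was 28 and 28 and Esrrb 8 and 10. Nanog and Zfp42 thus lay between the 2 control days, whereas Dppa5a and Esrrb were within 1 of their values in DMSO day 5.

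The reprogramming factors were slightly higher. Pou5f1 was 2886 and 2862 against 2214 and 2316 (0.34 ± 0.05), Sox2 1059 and 1061 against 842 and 825 (0.35 ± 0.18, not called) and Klf4 834 and 784 against 615 and 605 (0.41 ± 0.08). The values of these 3 genes can hold transcripts of the retroviral vectors as well as the endogenous genes. In DMSO day 5 Pou5f1 was 2944 and 3117, close to pre-p38i day 5. Removing the 3 genes left the nearest control group as it was. Among 13230 genes, 3 with such small differences could hardly change it.

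Epithelial genes were intermediate too. Of 24 tested, 0 were called higher and 8 lower, with a median of -0.38. Cldn4, a tight-junction claudin, was 8 and 7 against 38 and 27 (-1.96 ± 0.36), near the 5 and 3 of DMSO day 5. Epcam, an epithelial adhesion molecule, was 104 and 93 against 182 and 183 (-0.89 ± 0.20), above the 39 and 34 of DMSO day 5. Spint1, a protease inhibitor of epithelia, was 16 and 14 against 39 and 32 (-1.19 ± 0.36), a call lost in 7 alternative settings. Cdh1 (E-cadherin) at 138 and 137 against 159 and 151, and Krt8 at 65 and 66 against 72 and 71, were not called. In pre-p38i day 3 against DMSO day 5, Epcam fell (-0.67, adjusted p = 0.0289), as did Spint1 (-1.25, adjusted p = 0.0266) and Cldn4 (-1.29, adjusted p = 0.0204). Over the epithelial list 1 gene rose and 7 fell there.

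Several other named genes with lower values stood near their level in DMSO day 5. Mylpf, a fast skeletal myosin light chain, was 7 and 6 against 55 and 49 (-2.82 ± 0.43), with 4 and 4 in DMSO day 5 and 80 and 87 in pre-p38i day 7. Bhmt, which remethylates homocysteine, was 10 and 10 against 54 and 51 (-2.28 ± 0.25), with 7 and 5 in DMSO day 5. Sprr2a2, a cornified-envelope gene, was 4 and 4 against 22 and 29 (-2.39 ± 0.31), and Cd209f, a C-type lectin, 11 and 9 against 46 and 39 (-1.98 ± 0.26). Both share near-identical sequence with neighbouring family members. Slc2a3, a glucose transporter, was 22 and 24 against 65 and 69 (-1.50 ± 0.17), and 22 and 22 in DMSO day 5. Slc2a3 fell also in pre-p38i day 3 (-0.72, adjusted p = 0.00727) and in p38i MEFs (-0.50, adjusted p = 0.0471). C1qtnf3, a secreted C1q relative, had another course. It was listed at 0 in both pretreated libraries, at 3 and 3 in DMSO day 7 and at 6 and 4 in DMSO day 5.

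Macrophage markers were mostly lower in the pretreated cells. Primary MEF cultures can hold tissue macrophages of the embryo, and the list was used as a marker of such cells. Of 22 names, 19 passed the filter on low values. In the pair 9 were called lower and 1 higher, with a median of -1.0. The summed level of the list was 271 and 256 in pre-p38i day 5 and 424 and 436 in DMSO day 7. Cx3cr1 was listed at 0 in all 4 libraries, and Fcgr3 and Trem2 at 0 in both pretreated libraries. In bulk RNA, fewer macrophages and less macrophage RNA per cell cannot be told apart.

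The complement genes C1qa, C1qb and C1qc, made by tissue macrophages, were all lower. C1qa was 2 and 3 against 13 and 12 (-1.96 ± 0.36), C1qb 6 and 6 against 16 and 15 (-1.24 ± 0.26) and C1qc 5 and 2 against 14 and 17 (-1.95 ± 0.27). Lyz2, a lysozyme of myeloid cells, was 37 and 35 against 98 and 109 (-1.50 ± 0.10). The adaptor gene Tyrobp was 4 and 0 against 8 and 6 (-1.83 ± 0.46), a call lost in 3 alternative settings. For C1qa, Lyz2 and Tyrobp both pretreated libraries were below all 10 MEF and DMSO libraries, which held for 2.75% of all genes. Mpeg1 ran the other way, at 72 and 69 against 20 and 21 (1.73 ± 0.11). It encodes perforin-2, a pore-forming protein that macrophages express and that interferon can induce in other cells. In DMSO day 5 Mpeg1 was 55 and 55.

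The fall of macrophage markers was seen in each comparison that shares no library with the pair. In pre-p38i day 3 against DMSO day 5, 14 of 19 fell and 0 rose (median -1.25). In p38i MEFs against MEFs, where 9.73% of all genes were called higher and 8.15% lower, 10 fell and 0 rose (median -0.70). In pre-p38i day 1 against DMSO day 1, where the shares were 5.4% and 6.24%, 14 fell and 0 rose. C1qa fell in p38i MEFs (-1.84, adjusted p = 0.00101) and in pre-p38i day 3 (-1.71, adjusted p = 0.0027). Lyz2 fell in pre-p38i day 3 (-1.74, adjusted p = 1.31e-09) but differed by -0.20 in p38i MEFs (adjusted p = 0.204). In DMSO day 5 the marker sum was 691 and 706. Lower marker sums stood beside higher interferon lists and lower matrix genes in the pair, and their part in those results was not tested. Of 10 endothelial markers, 4 were tested and 0 called in the pair by limma. Tek, the angiopoietin receptor, was 66 and 67 against 57 and 58, and the other 9 were at 3 or less in the 4 libraries. Of the T and NK markers, Cd3d, Cd3e, Cd4, Cd8a, Gzmb, Ncr1, Nkg7 and Klrb1c were listed at 0 in all 4 libraries, while Cd3g and Cd2 were present. Cd3g was 40 and 44 against 37 and 46 and was not called. Cd2 was called lower at 9 and 7 against 24 and 24, a call lost in 3 alternative settings.

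Fibroblast matrix genes were lower in part. Of 29 collagen and matrix genes, 12 were called lower and 2 higher, with a median of -0.23. Thbs1, a matricellular protein that activates TGF-beta, was 70 and 65 against 155 and 166 (-1.24 ± 0.06). Lox, a collagen cross-linking oxidase, was 23 and 22 against 38 and 42 (-0.80 ± 0.06), and Spp1 (osteopontin) 239 and 215 against 351 and 361 (-0.65 ± 0.08). All 3 lay below every MEF and DMSO library. The genes of major fibrillar collagens differed little. Col1a1 at 273 and 244 against 290 and 319 and Col3a1 at 322 and 280 against 292 and 313 were not called, and Col1a2 at 752 and 718 against 633 and 655 was called higher. Prrx1, a transcription factor of mesenchyme, was called higher at 90 and 76 against 51 and 54 (0.65 ± 0.08), and it rose in pre-p38i day 3 (0.43, adjusted p = 0.00065). Twist1, another, was 108 and 110 against 94 and 102.

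The matrix genes also fell in the other libraries. In p38i MEFs 20 of the 29 fell and 4 rose, and in pre-p38i day 3 against DMSO day 5, 12 fell and 3 rose. Thbs1 fell in p38i MEFs (-1.07, adjusted p = 5.2e-10) and in pre-p38i day 3 (-1.32, adjusted p = 1.12e-10). Col1a2 fell in p38i MEFs (-0.83, adjusted p = 3.06e-09) but rose in pre-p38i day 3 (0.43, adjusted p = 3.4e-05). Grem1, a secreted BMP antagonist, was 44 and 44 against 98 and 105 in the pair (-1.19 ± 0.05) and fell in p38i MEFs (-1.0, adjusted p = 4.46e-11). Ccn2, a TGF-beta and YAP target, was 133 and 135 against 235 and 268 (-0.90 ± 0.07). The smooth-muscle genes Tagln at 5 and 5 against 15 and 16 (-1.46 ± 0.13) and Myl9 at 3 and 2 against 8 and 13 (-1.70 ± 0.25) were below every control library, whereas in p38i MEFs Tagln differed by 0.20 (adjusted p = 0.329).

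Proliferin genes, prolactin relatives made by cultured fibroblasts, were lower as well. Prl2c2 was 51 and 38 against 103 and 114 (-1.28 ± 0.28), a call lost in 3 alternative settings. Prl2c3 was 17 and 22 against 43 and 43 (-1.11 ± 0.20). Prl2c2 fell in p38i MEFs (-3.08, adjusted p = 1.75e-07) and in pre-p38i day 3 (-2.39, adjusted p = 9.06e-06). Prl2c3 fell in both too (-4.17, adjusted p = 3.3e-11, and -2.42, adjusted p = 1.45e-07). They are near-identical, so reads may have been split between them. The difference from control was smaller in the pair than in either other comparison, though the change in size was not tested.

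Senescence-type secreted factors had fewer calls in the pair than in p38i MEFs or in pre-p38i day 3. Of 21 tested, 4 were called lower and 1 higher, against 16 lower and 0 higher in p38i MEFs and 10 lower and 0 higher in pre-p38i day 3 against DMSO day 5. The share called lower in the pair was still above the 4.36% of all genes. Igfbp3, which binds insulin-like growth factors, was 954 and 1005 against 1783 and 1765 (-0.86 ± 0.06). Ptgs2 (COX-2), whose message is stabilised through p38, was 19 and 23 against 30 and 32 (-0.55 ± 0.10) and fell in p38i MEFs (-1.94, adjusted p = 3.3e-11). Ccl2 at 491 and 518 against 450 and 473 was not called, although it fell in p38i MEFs (-1.13, adjusted p = 9.78e-07) and in pre-p38i day 3 (-0.75, adjusted p = 0.000203). Ccl8, a chemokine gene, was called higher at 136 and 164 against 88 and 90 (0.74 ± 0.25). That call was lost in 8 alternative settings, quantile normalization and each removal of a library among them. In DMSO day 5 Ccl8 was 182 and 140.

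Cell cycle genes were higher by modest amounts. Of 24 mitotic spindle and kinetochore genes, 18 were called higher and 0 lower, with a median of 0.43. After quantile normalization 14 were called higher, with a median of 0.35. Mki67, a marker of cycling cells, was 46 and 43 against 30 and 28 (0.60 ± 0.08). Tpx2, which activates Aurora A on the spindle, was 80 and 78 against 55 and 55 (0.51 ± 0.07), and the topoisomerase gene Top2a 171 and 170 against 127 and 125. Ccnb2, a mitotic cyclin, was 97 and 91 against 71 and 66. Cytokinesis genes were higher for 11 of 21 and lower for 0. Aurkb was 69 and 62 against 48 and 46 (0.47 ± 0.12), a call lost in 3 alternative settings. Racgap1 was 95 and 99 against 75 and 68 (0.44 ± 0.07). DNA replication genes were higher for 11 of 27 and lower for 0. Rrm2, a ribonucleotide reductase subunit, was 268 and 253 against 194 and 187 (0.45 ± 0.05), and Tk1, thymidine kinase, 97 and 108 against 75 and 74 (0.45 ± 0.11).

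These genes also rose where the libraries were others. In pre-p38i day 3 against DMSO day 5, 15 of the 24 mitotic genes rose and 0 fell (median 0.36), and 11 of the 27 replication genes rose and 0 fell. In p38i MEFs 15 mitotic and 10 replication genes rose and 0 fell. In pre-p38i day 1 against DMSO day 1, 0 of the 24 mitotic genes were called by limma and their median was -0.02. Mki67 rose by 0.44 in pre-p38i day 3 (adjusted p = 0.000903) and by 0.36 in p38i MEFs (adjusted p = 0.00356). Tpx2 rose by 0.55 (adjusted p = 1.51e-05) and 0.22 (adjusted p = 0.026). Promoters of this list often hold CCAAT, the box bound by NF-Y: 17 of 21 with a promoter in the table (81%) hold it on either strand, against 37.4% of all promoters and 43.3% of those of genes tested. MHC class I promoters hold it at a like share, 11 of 13 (84.6%). The Ccnb2 promoter, on the minus strand at chr9:70421505-70421804, holds it 3 times (capitals), first 87 bases before the start. It is shown because the box recurs close to the start.
Ccnb2: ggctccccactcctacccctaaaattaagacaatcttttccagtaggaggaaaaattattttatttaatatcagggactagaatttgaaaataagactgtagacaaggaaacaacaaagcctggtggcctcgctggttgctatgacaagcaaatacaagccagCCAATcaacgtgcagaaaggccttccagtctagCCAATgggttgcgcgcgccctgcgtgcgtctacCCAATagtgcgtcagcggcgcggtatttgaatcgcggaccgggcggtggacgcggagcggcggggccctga

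**Figure D5:**
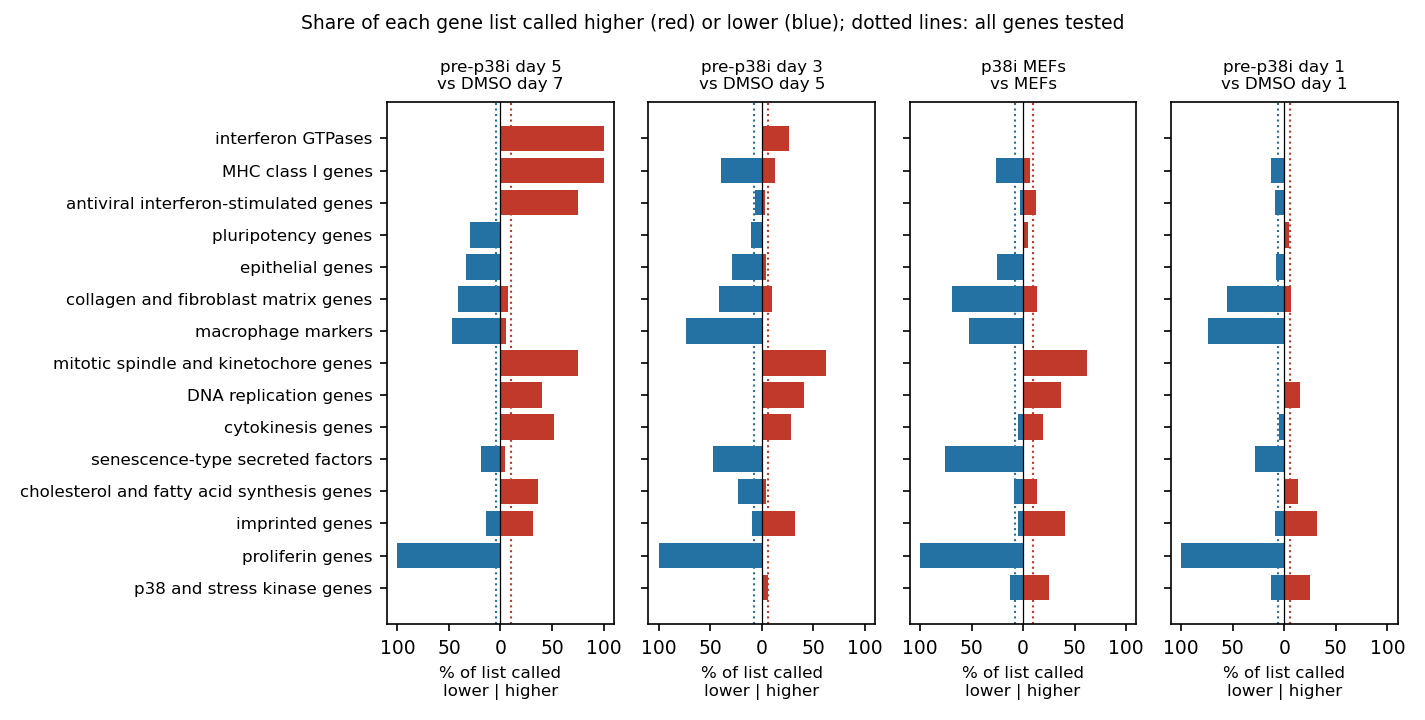
Percent of the tested members of 15 gene lists called higher (red, to the right) or lower (blue, to the left) in the pair and in 3 comparisons that share no library with it, with dotted lines at the shares over all genes tested. Interferon and MHC lists reach their high shares in the pair, whereas mitotic genes were called higher in 18, 15, 15 and 0 of 24 and macrophage markers lower in 9, 14, 10 and 14 of 19.

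Regulators of G1 differed gene by gene. Cdkn2a, which encodes p16 and p19ARF, was 198 and 218 against 272 and 295 (-0.45 ± 0.06), and it fell in p38i MEFs (-0.35, adjusted p = 0.000498) and in pre-p38i day 3 (-0.72, adjusted p = 2.24e-07). Cdkn2c, another INK4 inhibitor, was 37 and 39 against 24 and 23 (0.67 ± 0.14) and rose in both, by 0.79 (adjusted p = 0.000503) and 0.61 (adjusted p = 0.00652). Rb1 was 58 and 59 against 38 and 38 (0.61 ± 0.08). Trp53 at 217 and 207 against 215 and 200 was not called. Of 23 genes in the p53 list, 5 were called lower and 2 higher, and after quantile normalization 9 were called lower and 1 higher. Pmaip1 (Noxa) was 12 and 12 against 17 and 17 (-0.47 ± 0.11) and fell in p38i MEFs (-1.72, adjusted p = 7.13e-10). Fas, a death receptor, was 24 and 24 against 16 and 14 (0.65 ± 0.17), a call lost in 4 alternative settings. In DMSO day 5 Fas was 27 and 27. Among 16 p38 and stress kinase genes 0 were called in the pair by limma, and after quantile normalization 2 were called lower. Mapk14, p38 alpha itself, was 42 and 44 against 40 and 42.

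Part of the DNA methylation and imprinted genes were higher. Of 6 DNA methylation genes, 3 were called higher and 0 lower. Dnmt1, the maintenance methyltransferase, was 117 and 114 against 91 and 87 (0.37 ± 0.07), its partner Uhrf1 126 and 118 against 95 and 98 (0.33 ± 0.07), and Tet2, a 5-methylcytosine dioxygenase, 36 and 37 against 21 and 18 (0.88 ± 0.19). Dnmt1 and Uhrf1 rose in p38i MEFs, by 0.50 (adjusted p = 2.22e-05) and 0.43 (adjusted p = 0.000111), whereas Tet2 differed by -0.29 (adjusted p = 0.348). Of 22 imprinted genes, 7 were called higher and 3 lower, and 12 were not called. Igf2, the fetal growth factor, was 268 and 270 against 156 and 163 (0.75 ± 0.04). Against the same day it was lower, with 312 and 338 in DMSO day 5. In pre-p38i day 7 Igf2 was 112 and 103, below DMSO day 7. Nnat was 131 and 137 against 87 and 81 (0.67 ± 0.08), and the non-coding RNA Meg3 39 and 38 against 16 and 18 (1.14 ± 0.25). Igf2 rose by 0.59 in p38i MEFs (adjusted p = 1.34e-08) and by 0.71 in pre-p38i day 3 (adjusted p = 2.87e-09). Meg3 differed by 0.22 (adjusted p = 0.634) and -0.15 (adjusted p = 0.76) in those libraries.

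Sterol synthesis and keratin genes gave smaller sets. Of 22 cholesterol and fatty acid synthesis genes, 8 were called higher and 0 lower, with a median of 0.19. In pre-p38i day 3 against DMSO day 5 the list had 1 that rose and 5 that fell. Among 15 epidermal genes 5 were called higher and 2 lower. Krt13 was 68 and 64 against 27 and 29 (1.21 ± 0.26) and Krt6a 13 and 13 against 6 and 5 (1.11 ± 0.13), whereas Sfn was 19 and 16 against 37 and 35 (-1.0 ± 0.16).

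TGF-beta and BMP genes were lower in part. Of 23 tested, 6 were called lower and 3 higher (median -0.24), and after quantile normalization 10 were called lower and 3 higher. The lower ones were Ccn2, Grem1, Ltbp2 and the BMP-responsive inhibitors of differentiation Id1, Id3 and Id4. The call of Ltbp2 was lost in 5 alternative settings. Id3 was 42 and 41 against 69 and 69 (-0.72 ± 0.10), level with the 39 and 42 of DMSO day 5. The activin antagonist gene Fst, at 50 and 48 against 31 and 32 (0.62 ± 0.09), Ltbp1 and the receptor gene Tgfbr2 were higher.

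The remaining lists had at most 3 calls in either direction. Of 18 mesenchymal genes 2 were called higher and 2 lower, and of 13 contractile genes 1 and 2. Of 23 glycolysis and hypoxia genes 1 was called higher and 3 lower, of 16 metallothionein and ATF4 target genes 0 and 2, and of 9 AP-1 genes 0 and 1.

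Over the whole table, genes with a difference of at least 1 in the pair were also called in part in the earlier comparison. Of the 135 higher genes, 37 (27.4%) rose in pre-p38i day 3 against DMSO day 5, where 5.82% of all genes did. Of the 139 lower genes, 63 (45.3%) fell there, where 7.54% of all genes did. In p38i MEFs 5.19% of the higher genes rose, against 9.73% of all genes, and 20.9% of the lower genes fell, against 8.15%. On day 1 the shares were 6.67% of the higher genes, near the 5.4% of all genes, and 26.6% of the lower ones, against 6.24%. Only 54 of the 135 higher genes had a mean of at least 1 in the libraries of p38i MEFs and MEFs, and 6 of these rose there. The rest were under that level, so the 5.19% cannot be read as a depletion. Of the 139 lower genes 79 had such a mean, and 26 of these fell. Called in the same direction in the pair, in p38i MEFs and in pre-p38i day 3 were 117 higher and 92 lower genes. They include Igf2, Samhd1, Psme1, Mki67 and Dnmt1 among the higher ones and C1qa, Thbs1, Grem1, Prl2c2 and Cdkn2a among the lower ones.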

How the data were processed

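Bulk mRNA-seq was measured in 28 libraries of 14 groups. Per the submitters' processing notes, bcl2fastq, Bowtie2 2.2.5 and RSEM 1.3.0 were used, with builds mm10 and hg38 named. The deposited table gives a score per gene (50600 genes): whole numbers that sum to 991287 to 992537 in each library, as TPM rounded down by the authors would. TPM keeps no depth, so depth and counting error are unknown. The labels name TRIzol and a V2 library kit, the study's methods a column kit and V3. Gene identifiers matched GENCODE M21 for 99.6%, and 27 names turned into dates were restored. Genes with a mean of at least 1 (13230) were fitted on log2(value + 1) with limma 3.58.1 in R 4.3.3 (trended eBayes, all groups in 1 model, no block, two-sided). On simulated data for the pair, 178 of 200 changed genes were recovered with 4.3% false calls. The changed genes were drawn only from genes well above the filter on low values, so the recovery does not cover low genes. An exact permutation test of 2 against 2 cannot go below 0.333.

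The pair, the 28 gene lists and the tests were chosen with earlier results of these data known. Named genes are the 10 per direction with the largest called difference, no overlap between groups, a mean of at least 5 and no predicted-gene name, the 4 largest per list, genes named by the study, the markers, and up to 5 per direction called in 3 comparisons or outside all controls. Genes named outside this rule were chosen after their values were seen. Near-identical transcripts (95% over 200 bases) were found with BLAST 2.17.0. Alternatives changed the pseudocount, the filter, the scaling, the groups in the model, the replicate block and the replicates used.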

Additional observations from a re-analysis of the deposited data

How the results depend on the processing

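DMSO day 7 was nearer than DMSO day 5 in every alternative run but 1. The distance to day 7 minus that to day 5, -0.0442, became -0.0522 with a pseudocount of 0.1, -0.0319 without a filter, -0.0502 after quantile normalization and -0.0481 between single libraries (added after seeing the data). Over the 500 most variable genes it reversed to 0.145, and without single replicates it ranged from -0.0469 to -0.0117, with -0.0117 without DMSO day 7 replicate 1 and -0.0183 without replicate 2, where 1 library stands against a mean of 2. Counts of calls (1895 in the pair, 1767 in pre-p38i day 3, 2365 in p38i MEFs and 1539 on day 1) fell to 274, 323, 351 and 252 at a log2 difference of at least 1. Fitted by limma on only the groups compared, they were 420, 2, 926 and 0, with 3731, 3097, 3622 and 2895 at an unadjusted p under 0.05. Leaving out any single replicate, which leaves limma to assume that the lone library varies like the other groups, gave 1010 to 1085, 1012 to 1266, 1515 to 1676 and 856 to 950.

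Of the genes higher in the pair by at least 1, the share called higher in p38i MEFs (5.19%) was 9.48% with a pseudocount of 0.1, 0% with only the groups compared and 2.96% to 9.52% without single replicates, and the share in pre-p38i day 3 (27.4%) was 0% and 15.6% to 32.4%. Of the lower genes, the share in p38i MEFs (20.9%) was 11.3% without a filter and 35.2% with a minimum mean of 5, and that in pre-p38i day 3 (45.3%) was 29.4% without a filter and 1.43% with only the groups compared. With a minimum mean of 5 the list medians of endothelial and epidermal genes reversed to 0.21 and -0.03. Of 102 named genes called in the pair, 36 kept the call in every setting, and 0 of 1427 values reversed. The cause of these shifts was not tested.

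Replicate numbers did not pair the libraries: deviations of same-numbered libraries correlated at -0.000853 in the pair and from -0.0838 to 0.0874 overall. With the replicate block, 1876, 1746, 2346 and 1508 genes were called, each within 1.5 times the count without it.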

Other observations

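Tpt1-ps3, a processed pseudogene of the translationally controlled tumour protein gene, stands outside the rule for named genes and was picked after its values were seen. It was listed at 0 in both pre-p38i day 5 libraries and at 305 and 81 in DMSO day 7, but also at 51 and 0 in DMSO day 5, so that replicates of 1 group lie far apart.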
